A study of Mus musculus with 3 samples.

Results

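The cytosolic ribosomal protein genes were read in hippocampal RNA of 10-month-old mice. The set was chosen by name from the deposited table of FPKM, which counts fragments per kilobase of a gene and corrects for the size of the library. It holds the protein-coding genes named Rps or Rpl followed by a digit, together with Rpsa, Rplp0, Rplp1 and Rplp2, and leaves out the Rps6k kinases and names marked as pseudogenes. This gave 86 genes of 54532 in the table, 34 named for the small and 52 for the large subunit. Rps2 and Rps3a1 were kept apart, because their reads may be shared with near-identical copies elsewhere in the genome. Of the 86 genes, 82 reached an FPKM of 1 in at least 1 library, and 80 of these remained without Rps2 and Rps3a1. The other 4 stayed below 1 in every library.

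The study compared 3 groups of mice on a C57BL/6 background, all of 10 months: wild type (WT), PS19, and PS19 with Zbp1 lowered, which the labels write as Zbp1+- and which is written here as PS19 Zbp1+/- (also the Zbp1+/- library). PS19 mice express a mutant human tau transgene from the mouse prion protein promoter, and tau aggregates form in their neurons. The PS19 Zbp1+/- group carries the same transgene, and the protein made from Zbp1 senses Z-form RNA and DNA. Each group was 1 library, the labels do not say whether animals were pooled, and no difference below has a replicate check, so no p-value is given.

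Each ribosome joins a small subunit, which reads the mRNA, to a large subunit, which forms the peptide bonds, and both are built of ribosomal RNA and about equal amounts of each ribosomal protein. The mRNAs of ribosomal proteins and of several translation factors begin with a cytosine followed by a run of pyrimidines, the 5′ terminal oligopyrimidine (TOP) tract, through which the mTORC1 kinase controls their translation. Intron-containing ribosomal protein genes have many processed pseudogenes in mammalian genomes, which are reverse-transcribed copies without introns, and short reads from a gene and from a recent copy can be hard to tell apart.

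Whole reads recovered from the FPKM steps summed to between 16400328 and 17109734 per library, and the 86 genes held 206395 of them in WT, 173690 in PS19 and 187181 in the Zbp1+/- library. Zbp1 itself was covered by 5 reads in WT, 91 in PS19 and 0 in the Zbp1+/- library, where 0 reads allow an FPKM of up to 0.0537. Xist had 11062, 13350 and 0 reads in the same order, and 4 genes of the Y chromosome had 0, 0 and 1887, so the PS19 Zbp1+/- library also differed from the other 2 in sex-linked transcripts. The number of genes with a read was 24741, 25397 and 21408. Every marker gene of neurons, astrocytes, microglia and oligodendrocytes in the lists used was detected in each library. Summed FPKM of 9 microglial markers was 177 in WT, 625 in PS19 and 188 in the Zbp1+/- library, that of 7 oligodendrocyte markers 834, 1494 and 544, and that of 10 choroid plexus markers 3488, 2212 and 27.5. The sums were 1028, 941 and 1316 for 7 neuronal and 463, 1279 and 544 for 6 astrocyte markers. Single markers did not all follow their sum. Of the microglial ones 8 were higher in PS19 than in WT, and P2ry12 was lower, at 10.1 against 11.2. These differences go with the libraries compared below, and their part in the ribosomal protein values was not tested. In bulk tissue, fewer cells of a type and less RNA per cell cannot be told apart.

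Ribosomal protein genes were among the abundant transcripts of the hippocampus. The median of their mean FPKM was 67.5 over the 82 genes, against 7.27 for protein-coding genes at a mean FPKM of at least 1. Their gene models were short, with a median length of 1730 bases against 4453 bases. The highest level was that of Rplp1, a protein of the acidic stalk that recruits translation factors, at an FPKM of 957 in WT, 676 in PS19 and 979 in the Zbp1+/- library. Rps15, a small subunit protein near the decoding site, was at 374, 271 and 427. Both were lowest in the PS19 library.

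The next 3 genes by mean FPKM were large subunit proteins. Rpl36 was at 257 in WT, 186 in PS19 and 269 in the Zbp1+/- library. Rpl4, part of the wall of the tunnel through which the new peptide leaves, was at 236, 207 and 253. Rpl8 was at 209, 171 and 241. As deposited, these levels had the same order of libraries as those of Rplp1 and Rps15. Differences of log2(FPKM + 1) between the Zbp1+/- library and WT were 0.033 for Rplp1, 0.064 for Rpl36 and 0.10 for Rpl4. They were 0.19 for Rps15 and 0.21 for Rpl8. With all libraries at the same FPKM sum (TPM), the median of the 80 genes in that comparison moved from -0.050 to -0.21. The place of the Zbp1+/- library in the order is therefore tied to the scaling. Differences of PS19 from WT stayed negative under TPM, from -0.37 for Rplp1 to -0.058 for Rpl4.

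At the low end, Rpl24 was at an FPKM of 1.35 in WT, 1.40 in PS19 and 1.41 in the Zbp1+/- library, from 24, 25 and 23 reads. Rps10 was at 2.06, 1.75 and 1.04, from 82, 70 and 38 reads, while 2 copies of at least 90% identity held 786, 654 and 936 reads. Rpl13a, a protein also known for a role in interferon-γ-dependent silencing of inflammatory mRNAs, was at 7.51, 5.42 and 7.08. Rpl21 was at 9.80, 10.2 and 7.53, from 575, 597 and 405 reads, beside 1956, 1477 and 1930 reads in its copies. Copies of Rpl24 held 72, 47 and 60 reads. For Rpl24, Rps10 and Rpl21 the gene's own value is therefore the smaller share of the reads on the gene and its copies together. Among the Rpl21 copies, BC004004, a protein-coding gene longer than the 480 matched bases, held 874, 751 and 920 reads. Its reads outside the match are counted too, so the Rpl21 sum is uncertain. With copies added, the log2 read ratio of PS19 Zbp1+/- to PS19 was 0.56 for Rps10 and 0.30 for Rpl21, where the genes alone were lower, with differences of -0.43 and -0.39.

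**Figure D1:**
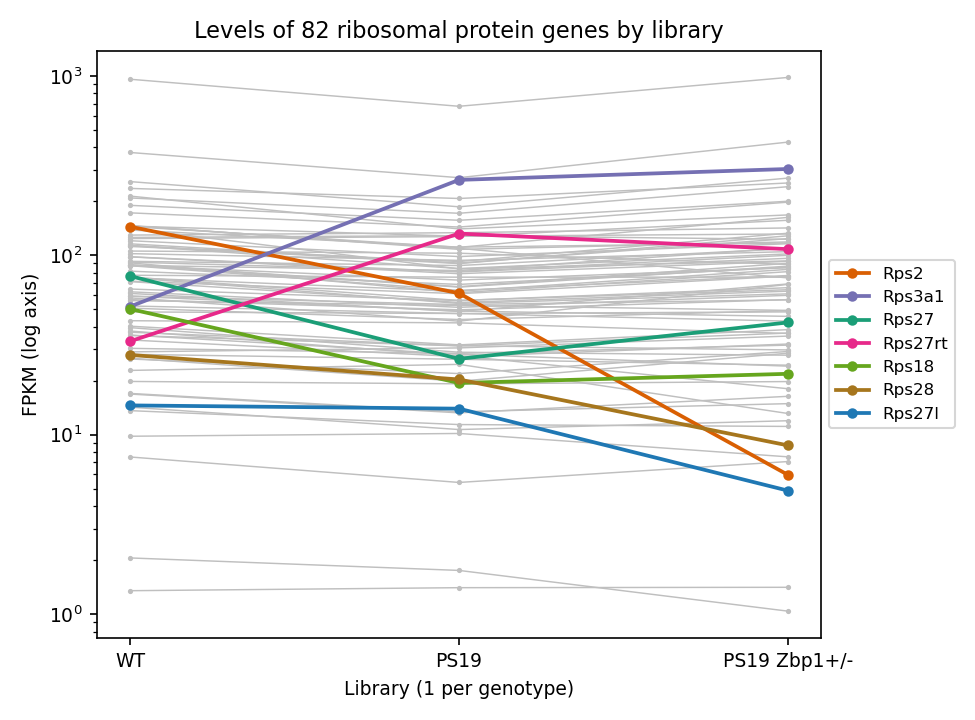
FPKM (log axis) of the 82 ribosomal protein genes that reached an FPKM of 1, with 1 line per gene across the 3 libraries (1 library per genotype). As deposited, most lines dip slightly in PS19. The rise from PS19 to PS19 Zbp1+/- is tied to this scaling: under TPM 28 of 80 genes were higher and 52 lower. The 7 coloured genes run apart, as Rps2 from 144 in WT to 5.97 in PS19 Zbp1+/- and Rps3a1 from 51.8 in WT to 263 in PS19.

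The first comparison was PS19 with WT. Without Rps2 and Rps3a1, the FPKM of the ribosomal protein genes summed to 7469 in WT and 6058 in PS19. The median of the 80 differences of log2(FPKM + 1) was -0.28, against -0.026 over all 12703 protein-coding genes that reached an FPKM of 1 in one of these libraries. Of the 80 genes, 72 were lower and 8 higher in PS19, where 53.7% and 46.3% of all genes tested lay below and above 0. A size of 0.5 log2 units was reached by 6 genes in the lower direction, against 4.73% of all genes, and by 1 in the higher direction, against 8.21%. At 1 log2 unit 2 genes were lower, against 0.291% of all genes, and 1 was higher, against 2.2%. The shared difference was thus small for most genes, and the few large differences sat in Rps27, Rps18 and Rps27rt, which are taken up with their copies below.

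Counting error alone was tight for most of these genes. Read ratios of PS19 to WT, taken per library size, had an exact (Clopper-Pearson) 95% interval wholly below 1 in 64 of the 80 genes, wholly above 1 in 1 and spanning 1 in 15. The share of all genes with such an interval was not taken. Such an interval covers counting error only and compares 2 libraries, not 2 genotypes, and without molecular identifiers 2 reads may stem from the same molecule.

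Other settings narrowed the difference without turning it. When each library was rescaled to the same FPKM sum (TPM), the median over all genes moved to 0.082 and that of the ribosomal protein genes to -0.15, with 1 gene higher and 3 lower by 0.5, and 20 above and 60 below 0. After subtraction of the median of genes alike in GC content and length, the ribosomal protein median was -0.13, with 1 higher and 2 lower by 0.5, and 23 above and 57 below 0.

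Among the lowest genes in PS19 against WT, Rpl38, a large subunit protein linked in mice to the translation of Hox mRNAs, was at an FPKM of 141 in WT, 84.0 in PS19 and 93.0 in the Zbp1+/- library. Its difference of PS19 from WT was -0.74, and its log2 read ratio with copies added was -0.51. Rpl41, the smallest ribosomal protein, was at 214, 140 and 168, a difference of -0.60. Rpl23a, at the rim of the exit tunnel, differed by -0.55. All of these lay past the 0.5 size, as did Rplp1 at -0.50. With copies added the log2 read ratio of Rpl23a was -0.35, short of that size, and under TPM scaling Rpl41 at -0.48 and Rplp1 at -0.37 were also short of it.

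Genes at the other end were close to level. Rpl7a was at an FPKM of 22.8 in WT and 24.7 in PS19, a difference of 0.11 with a read ratio of 1.08 (0.974 to 1.20). Rps12 was at 28.9 and 30.5, a difference of 0.071. Rplp0, the scaffold of the stalk and a common reference transcript, was at 130 and 134, with a read ratio of 1.03 (0.986 to 1.08). The intervals of Rpl7a and Rplp0 included 1.

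**Figure D2:**
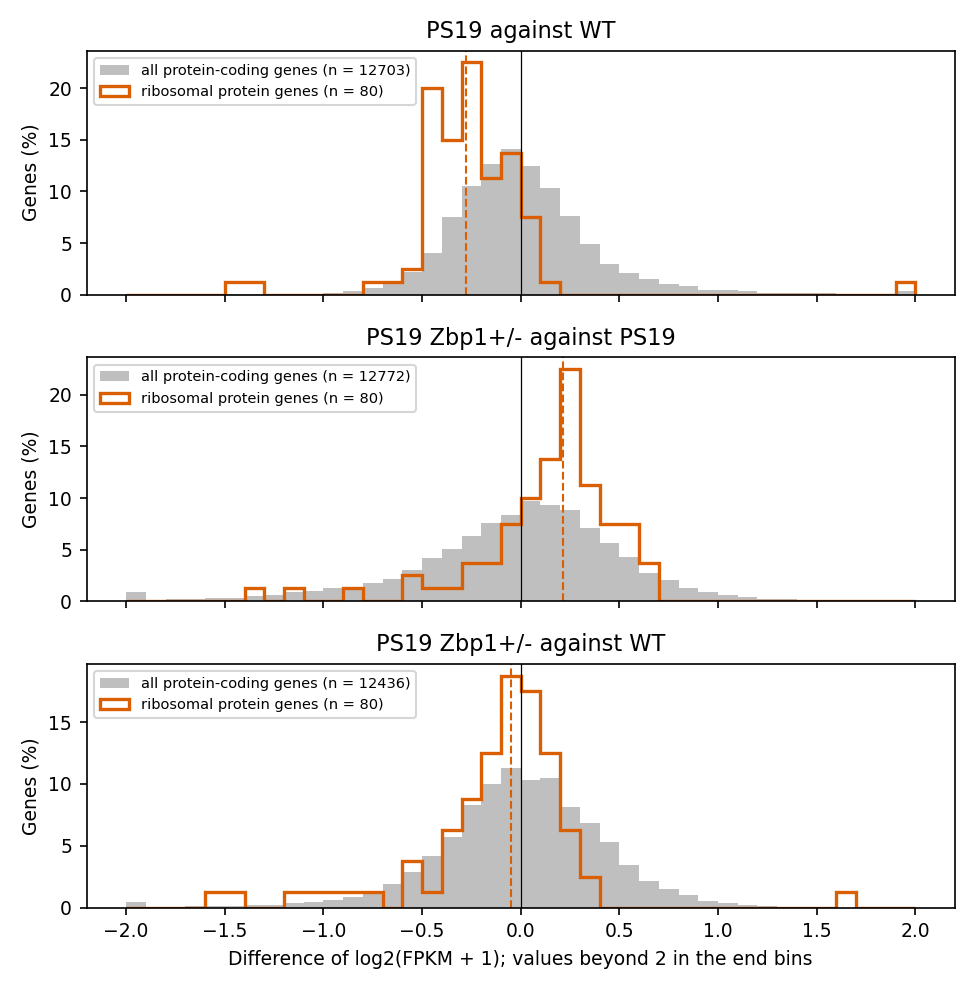
Percentage of genes (vertical axis) by difference of log2(FPKM + 1) in bins of 0.1, for each pair of libraries; grey, all protein-coding genes tested, orange outline, the 80 ribosomal protein genes, dashed line, their median. The outline is shifted to the left in PS19 against WT (median -0.28) and to the right in PS19 Zbp1+/- against PS19 (median 0.22, which turns to -0.063 under TPM scaling), and lies near 0 in PS19 Zbp1+/- against WT (median -0.050, which turns to 0.056 after the GC and length correction).

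The second comparison, PS19 Zbp1+/- with PS19, shares the PS19 library with the first, so the signs of both are not independent. The summed FPKM was 6058 in PS19 and 7381 in PS19 Zbp1+/-. The median difference of the 80 genes was 0.22, against 0.041 over 12772 genes, and it turned to -0.063 under TPM scaling and shrank to 0.032 when scaled to total reads. Those scalings moved the median of all genes to -0.20 and -0.12, so the ribosomal protein median stood above that of all genes by 0.17 as deposited, by 0.14 under TPM and by 0.15 under total reads. Higher values were found in 61 genes and lower ones in 19, where 53.7% and 46.3% of all genes lay above and below 0. This split became 28 higher and 52 lower under TPM scaling, and 44 and 36 under total reads.

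By 0.5 log2 units, 9 genes were higher and 5 lower, against 13.2% and 14.7% of all genes, shares that the ribosomal protein genes did not exceed. Under TPM scaling the split was 0 higher and 8 lower, under total reads 0 and 7, and after centring on all genes 4 and 5. By 1 log2 unit 0 were higher and 2 lower, against 2% and 5.16%. Read ratios had intervals wholly above 1 in 54 of the 80 genes, wholly below 1 in 13 and spanning 1 in 13. They were taken per library size implied by the FPKM, 17287957 for PS19 and 15826984 for PS19 Zbp1+/-. The recovered reads were 16400328 and 17109734. These interval counts hold for that scaling only, and the share over all genes was not taken.

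The genes higher in PS19 Zbp1+/- by the largest amounts were Rpl17, Rps15, Rps27, Rpl13 and Rplp1. Rpl17, which lines the exit tunnel, was at an FPKM of 57.9 in WT, 42.9 in PS19 and 68.8 in the Zbp1+/- library, and was 0.67 above PS19. Rpl13 was at 145, 111 and 163, and was 0.55 above PS19. Rps15 was 0.66 above PS19, with a read ratio of 1.58 (1.5 to 1.65). Rpl17, Rpl13 and Rps15 were at their lowest level in PS19, and under TPM scaling Rpl17, Rps15 and Rpl13 kept differences of 0.39, 0.37 and 0.27. Copies of Rpl17 held 2441, 2129 and 2404 reads, beside 774, 575 and 844 on the gene, and with them its log2 ratio to PS19 was 0.39.

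Lower values in PS19 Zbp1+/- were led by Rps27l, a paralog of Rps27 known as a target of p53. It was at an FPKM of 14.6 in WT, 14.0 in PS19 and 4.88 in the Zbp1+/- library, from 205, 197 and 63 reads. Its read ratio to PS19 was 0.349 (0.259 to 0.466), and copies of at least 90% identity held at most 3 reads in any library. The low value of Rps27l in PS19 Zbp1+/- was therefore also that of its sequence family. Rps28, at the mRNA exit of the small subunit, was at 27.8, 20.3 and 8.72. Rpl30 was at 37.8, 27.5 and 18.0, a difference from PS19 of -0.58, and with copies added its ratio to PS19 was 0.829 (0.769 to 0.894), a log2 ratio of -0.27.

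The third comparison, PS19 Zbp1+/- with WT, shares a library with each of the other 2. The median difference of the 80 genes was -0.050, against 0.010 over 12436 genes. It became -0.21 under TPM scaling and -0.20 under total reads, which both moved the median of all genes to -0.12, and it turned to 0.056 after the GC and length correction. The genes numbered 32 above and 48 below 0, against 51% and 49% of all genes. Under TPM scaling and under total reads the split was 13 above and 67 below, and after the GC and length correction 47 above and 33 below. By 0.5 log2 units 1 was higher and 10 lower, against 9.91% and 9.59%. By 1 log2 unit 1 was higher, against 1.07%, and 4 were lower, against 2.28%. After the GC and length correction, 5 were higher and 9 lower by 0.5.

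The higher gene was Rps27rt, and the 4 lower ones were Rps28, Rps27l, Rps18 and Rpl30, with differences from WT of -1.57, -1.40, -1.16 and -1.03. Rpl3, which reaches toward the peptidyl transferase centre, was at an FPKM of 124 in WT and 157 in PS19 Zbp1+/-, a difference of 0.34. Rps7 was at 87.8 in WT, 82.2 in PS19 and 110 in the Zbp1+/- library, and was 0.32 above WT. Rps12, at 35.4 in PS19 Zbp1+/-, was 0.28 above WT. With copies added, the log2 read ratios to WT were 0.10 for Rpl3, 0.091 for Rps7 and 0.31 for Rps12.

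Small and large subunit genes had like medians. In PS19 against WT the median was -0.28 for 32 small subunit genes and -0.27 for 48 large subunit genes. Against PS19, PS19 Zbp1+/- had 0.16 and 0.23, and in PS19 Zbp1+/- against WT -0.055 and -0.047. No test of the difference between subunits can be made with 1 library per genotype.

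The P stalk is formed by Rplp0, Rplp1 and Rplp2 and anchored with Rpl12. Rplp2 was at an FPKM of 59.2 in WT, 48.9 in PS19 and 45.6 in the Zbp1+/- library. Rpl12 was at 40.2, 31.7 and 38.5. Differences of PS19 from WT were 0.044 for Rplp0, -0.50 for Rplp1, -0.27 for Rplp2 and -0.34 for Rpl12, so these 4 partners did not share 1 value. The same genes differed between PS19 Zbp1+/- and WT by 0.13, 0.033, -0.37 and -0.062.

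Rpl5 and Rpl11 carry the 5S ribosomal RNA and, outside the ribosome, bind the p53 regulator Mdm2. Rpl5 was at an FPKM of 52.2 in WT, 47.3 in PS19 and 48.3 in the Zbp1+/- library. Rpl11 was at 59.2, 53.1 and 56.4. The differences of PS19 from WT, -0.14 and -0.15, were smaller than the median of the ribosomal protein genes. Rps6, whose protein is the classic substrate of the S6 kinases, was at 145, 128 and 131, with a difference of PS19 from WT of -0.19.

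Of 9 genes for proteins of the exit tunnel, all 9 were below WT in PS19, 1 of them by 0.5, with a median of -0.33, beside the -0.28 of all 80 genes. Among all protein-coding genes tested, 53.7% lay below 0 and 4.73% were lower by 0.5. Compared with PS19, PS19 Zbp1+/- had 7 of the 9 tunnel genes higher and 2 lower, with a median of 0.38. The 19 ribosomal protein genes mutated in Diamond-Blackfan anaemia were all below WT in PS19, as were 72 of the 80 genes tested, with a median of -0.31. The lowest of the 19 was Rps27, which is taken up with Rps27rt below. The median of the 19 in PS19 Zbp1+/- against PS19 was 0.23, with 15 higher and 4 lower. In that comparison 61 of the 80 genes were higher and 19 lower, with a median of 0.22, and 53.7% of all genes lay above 0. The median of the 80 turned to -0.063 under TPM scaling, with 28 higher and 52 lower. The tunnel and Diamond-Blackfan lists were not rescaled.

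Paralogs that replace a standard ribosomal protein in some tissues were weak here. Rpl3l, the form of heart and skeletal muscle, was covered by 9, 1 and 9 reads (WT, PS19, PS19 Zbp1+/-). Rpl39l had 3, 8 and 0 reads, and Rpl36al 13, 4 and 11. Rpl10l, a form of the testis, was listed at 0 in all 3 libraries. The exception beside Rps27l was Rpl22l1, at an FPKM of 16.8, 13.2 and 16.4.

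The name rule also takes in Rpl7l1 and Rps19bp1, which are not ribosomal proteins, and it misses some that are. Rpl7l1 was at an FPKM of 13.6 in WT, 11.4 in PS19 and 11.1 in the Zbp1+/- library, and Rps19bp1 at 14.2, 10.7 and 12.0. Of the missed ones, Fau, which encodes Rps30 fused to a ubiquitin-like protein, was at 221, 185 and 215. Rack1, a scaffold on the small subunit, was at 33.0, 31.0 and 36.9. Differences of PS19 from WT were -0.25 for Fau and -0.087 for Rack1.

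In several genes with a large difference between libraries, the reads of their copies differed in the opposite direction. Copies were taken as other gene models whose transcript matched at least 60% of the coding sequence at 90% identity or more. All reads of such a model were summed, also any outside the match. They were found for 80 of the 86 genes, 1011 in all, of which 489 had at least 1 read. In 13 genes the share of family reads that fell on the gene itself differed by at least 10 percentage points between libraries. The shift was 87.4 points for Rps2, 80.3 for Rps3a1, 34.4 for Rps28, 29.0 for Rpl7a and 27.5 for Rps18. Rpl36al shifted by 36.7 points, from only 37 family reads over all libraries.

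Rps3a1 (ENSMUSG00000028081, GRCm38 chromosome 3, 86137940 to 86142702), a small subunit protein, held 873 reads in WT, 4442 in PS19 and 4678 in the Zbp1+/- library. Its read ratio to WT was 5.08 (4.72 to 5.47) in PS19 and 5.84 (5.43 to 6.29) in PS19 Zbp1+/-. The WT library thus stood low alone. The processed pseudogene Rps3a2 on chromosome 14 (88123017 to 88123808) had 2077, 28 and 30 reads, and Rps3a3 on chromosome 13 (108670603 to 108671397) had 1798, 15 and 15. Both copies were high in WT alone.

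Summed over gene and copies, the Rps3a family held 4765 reads in WT, 4512 in PS19 and 4744 in the Zbp1+/- library. Its ratio to WT was 0.945 (0.907 to 0.984) in PS19 and 1.09 (1.04 to 1.13) in PS19 Zbp1+/-, so the 5-fold difference of the gene was not present in the family. Over the 792 bases of coding sequence, Rps3a2 differed from Rps3a1 at 4 bases and Rps3a3 at 9. The stretch below, bases 639 to 668 of the coding sequence in GENCODE release M21, was chosen among 30-base stretches where both copies differ. It holds the most differing bases among these. Capitals mark bases that differ from Rps3a1.
Rps3a1: aaaagtaaaaatgctgaagaaacccaagtt
Rps3a2: aaaagtTaaaatgctgaagaaacccaagtC
Rps3a3: aaaagtaaaaatgctgaagaaGcccaagtt

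Rps2 (ENSMUSG00000044533, chromosome 17, 24718116 to 24721929), a small subunit protein at the mRNA entry, held 4555 reads in WT, 1943 in PS19 and 173 in the Zbp1+/- library. Its read ratio to WT was 0.426 (0.404 to 0.449) in PS19 and 0.0414 (0.0354 to 0.0482) in PS19 Zbp1+/-. The 3 libraries were widely apart. Its copies held 478, 2029 and 5400 reads. Rps2-ps10 on chromosome 18 had 38, 1248 and 3591, and Rps2-ps13 on chromosome X 231, 590 and 1609. The whole family held 5033, 3972 and 5573 reads, with ratios to WT of 0.788 (0.755 to 0.821) in PS19 and 1.21 (1.16 to 1.25) in PS19 Zbp1+/-. The gene alone was lowest in PS19 Zbp1+/-, and the family was highest there.

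**Figure D3:**
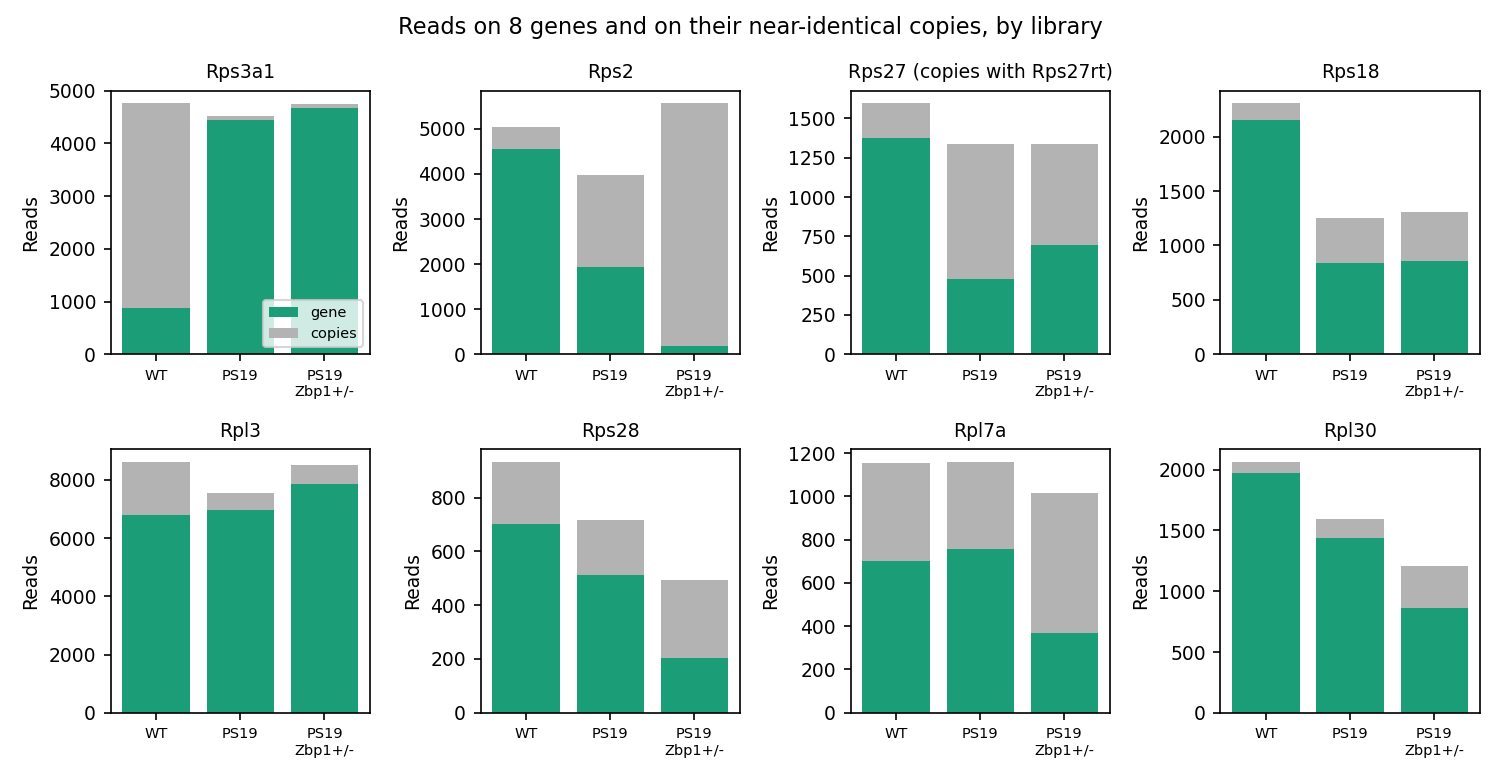
Reads on 8 ribosomal protein genes (green) and on their near-identical copies (grey, stacked) in each library, with a linear axis from 0. For Rps3a1 the bars are of like height (4765, 4512 and 4744 reads) while the green part runs from 873 in WT to 4678 in PS19 Zbp1+/-, and for Rps2 the green part runs from 4555 in WT to 173.

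Rps27 (chromosome 3, 90212522 to 90213651) and Rps27rt (chromosome 9, 114982366 to 114982739), a single short gene model annotated as protein coding, share an identical coding sequence of 252 bases. Rps27 held 1378 reads in WT, 477 in PS19 and 697 in the Zbp1+/- library. Rps27rt had 214, 854 and 640. The first was highest in WT and the second lowest there, and among the 80 genes these had the lowest and the highest difference of PS19 from WT, at -1.5 and 1.96.

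Summed with their copies, Rps27 and Rps27rt held 1598, 1336 and 1340 reads, with a ratio of PS19 to WT of 0.834 (0.775 to 0.898). That value, -0.26 in log2, was close to the median of all ribosomal protein families, -0.28. Both gene models therefore count as uncertain when read alone.

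Rps18 (chromosome 17, 33951999 to 33956001) held 2156 reads in WT, 836 in PS19 and 861 in the Zbp1+/- library, and its copies 153, 418 and 447. Most of the copies' reads were on Gm11361, annotated as protein coding, with 104, 353 and 350. The Rps18 family was 0.542-fold of WT in PS19 (0.506 to 0.581), a log2 ratio of -0.88 and the lowest of all 81 families. In PS19 Zbp1+/- it was 0.618-fold of WT (0.577 to 0.661). Unlike Rps3a1 and Rps27, Rps18 stood apart also when its copies were added.

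Rps28, Rpl7a, Rpl3, Rps7 and Rpl30 showed shifts of the same kind, smaller than those of Rps2 and Rps3a1. Rps28 had 703, 514 and 202 reads in the order WT, PS19, PS19 Zbp1+/-, and its copies 231, 201 and 292. Its family was 0.577-fold of WT (0.516 to 0.644) in PS19 Zbp1+/-, where the gene alone was 0.313-fold (0.267 to 0.367). Rpl7a had 701, 759 and 370 reads and its copies 455, 402 and 648, and its family ratio to WT was 1 (0.923 to 1.09) in PS19 and 0.960 (0.882 to 1.05) in PS19 Zbp1+/-. The low value of Rpl7a in PS19 Zbp1+/- was thus not present in its family, and that of Rps28 was in part.

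Rpl3 had 6786, 6973 and 7870 reads, and its copy Rpl3-ps1 on chromosome X 1785, 539 and 611. With all copies, Rpl3 in PS19 was 0.871-fold of WT (0.845 to 0.899), where the gene alone was at 1.03 (0.992 to 1.06). Rps7 had 3052, 2863 and 3501 reads, and its copy Gm6472 817, 311 and 246. Both copies were highest in WT. Rpl30 had 1970, 1437 and 862 reads and its copies 97, 156 and 347, and its family was 0.638-fold of WT (0.593 to 0.685) in PS19 Zbp1+/-.

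Rps29, chosen after its values were seen, is a small zinc-binding protein of the small subunit. It had 1741, 1309 and 820 reads, beside 151, 145 and 126 in its copies, and its family was 0.545-fold of WT (0.504 to 0.590) in PS19 Zbp1+/-.

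With copies added, the spread over the ribosomal protein genes was narrower. Over 82 genes the standard deviation of the log2 read ratio of PS19 to WT was 0.47, and over 81 families, with Rps27 and Rps27rt as 1, it was 0.16. In PS19 Zbp1+/- against PS19 it was 0.55 and 0.31, and in PS19 Zbp1+/- against WT 0.73 and 0.30. The 82 genes include Rps2 and Rps3a1, and part of the narrowing lay with these 2. Another part came from merging Rps27 and Rps27rt, whose differences of PS19 from WT were -1.5 and 1.96, into 1 family at -0.26. Over the 80 genes without Rps2 and Rps3a1, differences of log2(FPKM + 1) had standard deviations of 0.35, 0.36 and 0.42 in the same order. The medians of the 82 genes and of the 81 families hardly differed, at -0.28 for both in PS19 against WT, 0.21 and 0.23 in PS19 Zbp1+/- against PS19, and -0.051 and -0.044 in PS19 Zbp1+/- against WT.

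In PS19 against WT 78 families were lower and 3 higher. For all genes tested, without copies, the shares below and above 0 were 53.7% and 46.3%. Their counting intervals lay wholly below 1 in 69 of 81 and wholly above 1 in 0. Of the families, 64 were higher and 17 lower in PS19 Zbp1+/- against PS19, with intervals wholly above 1 in 56 and below 1 in 10. There 53.7% and 46.3% of all genes lay above and below 0. Families were not rescaled to TPM or total reads, under which the median of the 80 genes alone was -0.063 and 0.032. Their direction in this comparison is therefore tied to the scaling used. No share over all genes was taken for the interval counts. In PS19 Zbp1+/- against WT, 36 families were higher and 45 lower, against 51% and 49% of all genes. The lowest family in both comparisons of PS19 Zbp1+/- was Rps27l, at -1.52 against PS19 and -1.60 against WT.

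**Figure D4:**
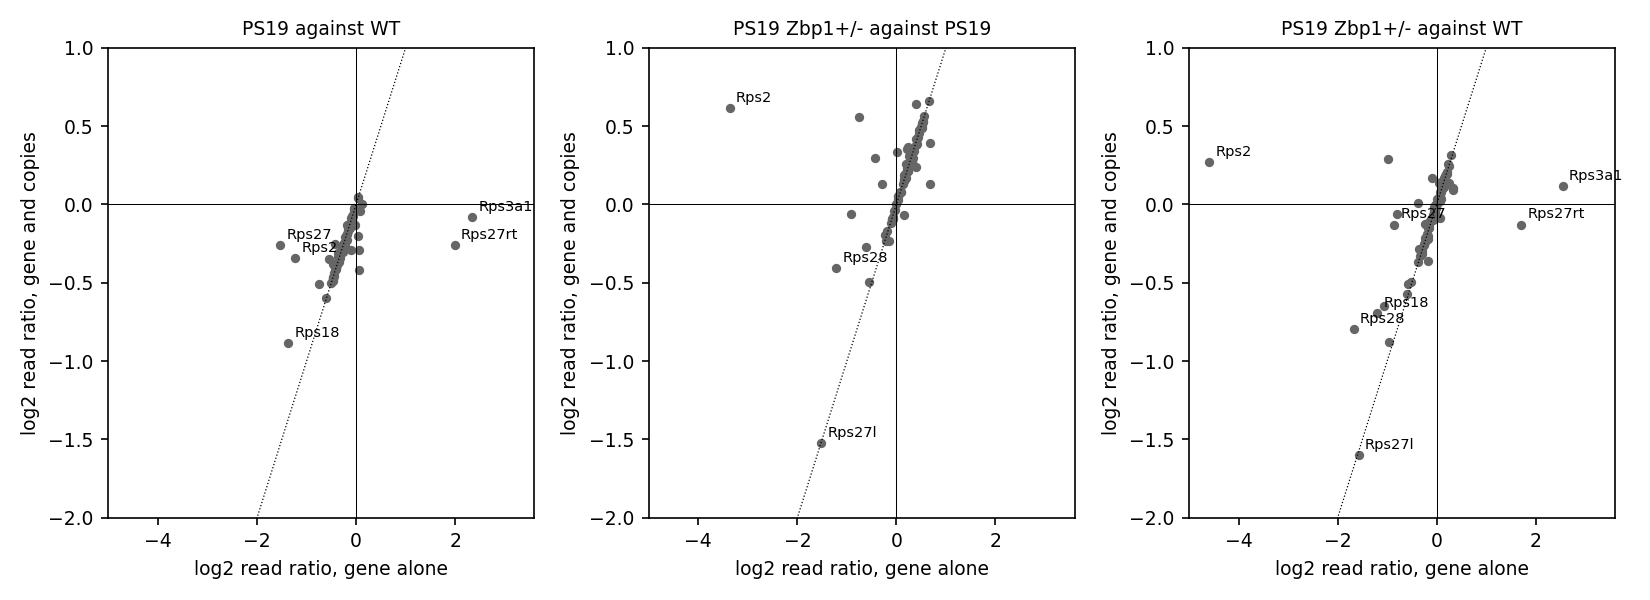
Log2 read ratio of the gene alone (horizontal axis) against that of the gene with its copies (vertical axis, on a wider scale) for 82 ribosomal protein genes in each pair of libraries; the dotted line marks equal values, and Rps27 and Rps27rt share 1 family value. Rps2, Rps3a1, Rps27 and Rps27rt lie far from the line, while Rps27l lies on it at -1.52 in PS19 Zbp1+/- against PS19.

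The median of the ribosomal protein genes was not apart from that of other abundant short genes. In PS19 against WT, 951 protein-coding genes at a mean FPKM of at least 20 and shorter than 3000 bases had a median of -0.30, and 1477 genes of that level and of 3000 bases or longer had -0.11. The same classes were at 0.24 and 0.30 in PS19 Zbp1+/- against PS19, and in PS19 Zbp1+/- against WT at -0.048 and 0.19. The ribosomal protein medians of -0.28, 0.22 and -0.050 were near those of the short class each time.

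Medians of other protein complexes lay on both sides of these. In PS19 against WT, 77 mitochondrial ribosomal protein genes had a median of -0.24, 76 nuclear-encoded subunits of the respiratory chain -0.42, and 37 proteasome subunits -0.27. These medians were, in PS19 Zbp1+/- against PS19, 0.18, 0.13 and 0.082, and in PS19 Zbp1+/- against WT -0.039, -0.27 and -0.14. By 0.5 log2 units, 23 of the 76 respiratory chain genes were lower in PS19, against 6 of the 80 cytosolic ribosomal protein genes and 4.73% of all genes.

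**Figure D5:**
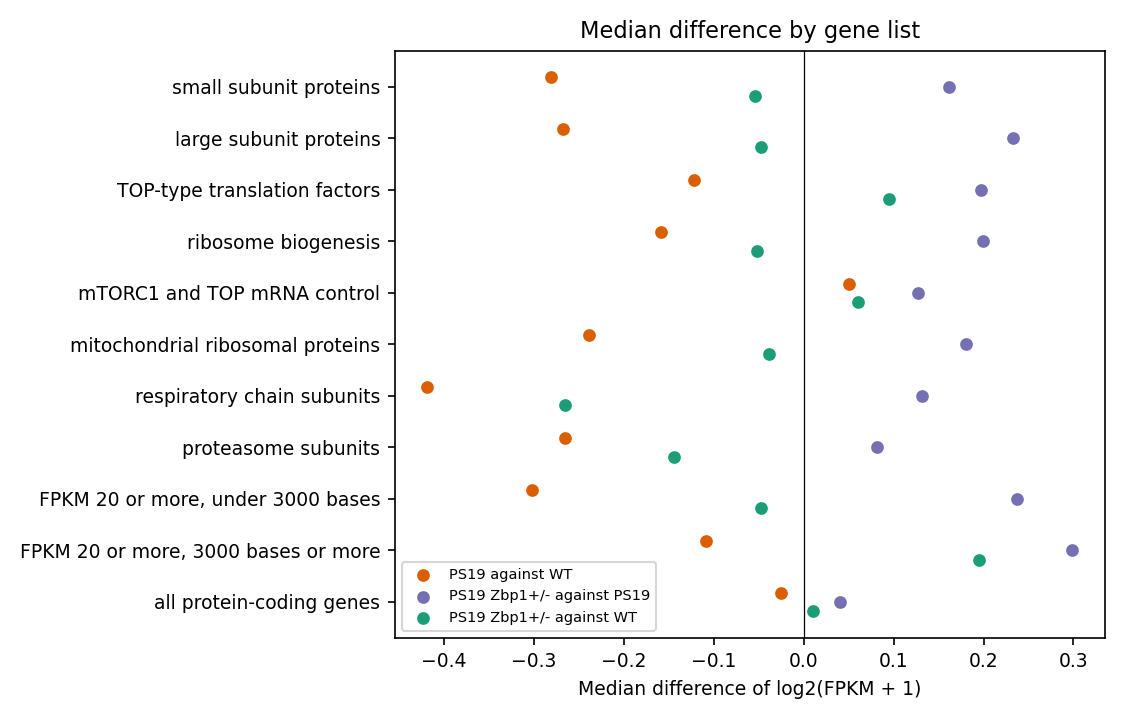
Median difference of log2(FPKM + 1) (horizontal axis) for each gene list, with 1 point per pair of libraries. In PS19 against WT (orange) both subunits lie near -0.28, close to proteasome subunits (-0.27) and to short genes at an FPKM of 20 or more (-0.30). Medians of the small and large subunits in PS19 Zbp1+/- against PS19 (purple) lie at 0.16 and 0.23, where the median of all ribosomal protein genes turns negative under TPM scaling.

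A list of genes with TOP-type mRNAs, translation factors and others such as Npm1, had a smaller median difference of PS19 from WT than the ribosomal protein genes. Of 14 such genes, 11 were lower and 3 higher in PS19, none by 0.5, with a median of -0.12. Among all protein-coding genes tested, 53.7% lay below 0. Eef1a1, which brings aminoacyl-tRNA to the ribosome, was at an FPKM of 936 in WT, 890 in PS19 and 996 in the Zbp1+/- library. Eef2, the translocation factor, was at 353, 365 and 489. Pabpc1, the poly(A)-binding protein, was at 25.9, 32.6 and 30.9 and had the highest difference of PS19 from WT in the list, 0.32. Against PS19, 12 of the 14 were higher in PS19 Zbp1+/-, with a median of 0.20, where 53.7% of all genes lay above 0. The median of all genes in that comparison was 0.041 as deposited and -0.20 under TPM scaling. This list was not rescaled, so its count holds for the deposited FPKM only. Against WT, 8 were higher and 6 lower in PS19 Zbp1+/-, beside 51% and 49% of all genes. Their median was 0.094, where the ribosomal protein genes had -0.050.

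Of 24 genes of ribosome biogenesis, 21 were lower and 3 higher in PS19 than in WT, 2 of them lower by 0.5, with a median of -0.16. Among all genes tested 53.7% lay below 0 and 4.73% were lower by 0.5. The lowest of the 24 was Nhp2, a core protein of the box H/ACA particles that modify ribosomal RNA. It was at an FPKM of 27.2 in WT, 16.96 in PS19 and 25.9 in the Zbp1+/- library. The highest was Polr1b, the second largest subunit of RNA polymerase I, at 2.52, 3.54 and 4.81. In PS19 Zbp1+/- against PS19, 16 of the 24 were higher, with a median of 0.20.

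The 14 genes of mTORC1 and of TOP mRNA control had a median of 0.050 in PS19 against WT, with 9 higher, 5 lower and none past 0.5. Among all genes tested 46.3% lay above 0 and 53.7% below. In PS19 Zbp1+/- against WT, 7 of the 14 were higher and 7 lower, with a median of 0.060. By 0.5 log2 units 3 were higher, against 9.91% of all genes, with Mtor at the top, and 0 lower, with Larp4 lowest at -0.497. These genes were not rescaled to TPM or total reads. All genes had a median of 0.010 in this comparison as deposited, and of -0.12 under either scaling. The count of 3 therefore holds for the deposited FPKM only. Mtor, the kinase itself, was at an FPKM of 10.5 in WT, 12.0 in PS19 and 18.1 in the Zbp1+/- library. Larp1, which binds the cap and TOP tract, was at 22.6, 24.9 and 32.9. Eif4e, the cap-binding factor, had the lowest difference of PS19 from WT in the list, -0.38.

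Transcript starts were searched for a TOP-type run, taken as a C followed by at least 4 bases that are each C or T, on the sense strand of the RefSeq start sites of GRCm38.p6. Of the 86 genes 66 had an entry, with 78 starts in all. The pattern matched at the annotated start itself in 17.9% of these starts, against 2.51% of all 32851 starts in the table. A match at the start may be part of a longer run that begins upstream. Within 5 bases on either side the shares were 41.0% and 18.3%, and within 10 bases 53.8% and 30.7%. A match is a description of the letters and not of use, and overlapping runs count once per start.

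The windows below show the 10 bases before and the 20 from the start. They are of 5 genes picked because the pattern matches at the annotated start, as in 14 of the 78 starts, and 2 without. Every such run is in capitals, and those of Rps6, Rps18 and Rps27 begin upstream of the start. Rplp0, Rps15, Rpl4, Rpl5, Rpl11 and Rps7, whose values are given above, also had no run within 5 bases of the start. Rps6 lies at chr4:86857348-86857377, Rpl38 at chr11:114668570-114668599, Rps18 at chr17:33955646-33955675, Rps27 at chr3:90213629-90213658, Rps27rt at chr9:114982720-114982749, Rps28 at chr17:33824543-33824572 and Rps3a1 at chr3:86142649-86142678. Rpl38 is read from the plus strand and the other 6 from the minus strand. The windows of Rps27 and Rps27rt end in the same letters, offset by 1 base of the annotated start, and differ upstream of them.
Rps6: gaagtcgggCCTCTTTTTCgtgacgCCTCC
Rpl38: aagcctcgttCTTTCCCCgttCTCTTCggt
Rps18: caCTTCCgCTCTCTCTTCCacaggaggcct
Rps27: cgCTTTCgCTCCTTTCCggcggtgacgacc
Rps27rt: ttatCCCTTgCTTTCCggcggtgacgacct
Rps28: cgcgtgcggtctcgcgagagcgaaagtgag
Rps3a1: gccggaagggcgaaagagcaagggtcacgt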

How the data were processed

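RNA was measured in 3 libraries, 1 per genotype. Per the labels' protocols, TRIzol was used for RNA extraction and an NEB Next Ultra RNA kit for the libraries. The submitters' processing notes name Trim Galore 0.6.5, STAR 2.5.3a, featureCounts 2.0.4 and the build mm39, but 98.3% of 54495 gene IDs had the positions of GENCODE M21 (GRCm38), so the table's own positions are printed. The authors deposited FPKM values. In every library FPKM times length moved in whole steps of a constant, so whole reads were recovered, with implied library sizes of 17253479, 17287957 and 15826984 for WT, PS19 and PS19 Zbp1+/-. How multi-mapping reads were counted is not given in the sources used here.

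Differences of log2(FPKM + 1) were taken over protein-coding genes reaching an FPKM of 1 in one of the compared libraries, and read ratios with exact 95% intervals. No test across genes was made. Ribosomal protein genes and gene lists were chosen with earlier results of these data known. The name patterns of other complexes, the classes at an FPKM of 20 and 3000 bases, the 3 start windows, the copy search (BLAST 2.17.0, GENCODE M21 transcripts) and the sums with copies were set after values had been seen. Named genes were, by rule, Rps2, Rps3a1, Rps6, Rpl13a, the 5 highest and 5 lowest by level and by each difference, and members of 5 role lists, of which 1 gene is not reported here. Of planned settings 11 were tried and 1 was added. The steps were checked on simulated data. Calculations were made in Python 3.11.15 (pandas 2.3.3, numpy 2.4.6; intervals with scipy 1.17.1), and matplotlib 3.10.9 drew the figures.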

Additional observations from a re-analysis of the deposited data

Results flagged for a closer look

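Copies outside the named set carried reads that stood far above the WT library. These were copies with at least 50 reads in the library compared and a lower interval bound of at least 4 for the read ratio per library size, a rule chosen after the data were seen. For Rps2-ps10 the ratio to WT was 32.8 in PS19, and 103 in PS19 Zbp1+/-. Gm6311, also a copy of Rps2, was 47.2-fold above WT in PS19 Zbp1+/-, from 130 reads against 3, and Rps2-ps13 was 7.59-fold above WT there. All of them are copies of 1 gene, Rps2, whose own reads were lowest in the same library. With 1 library per genotype these ratios compare libraries.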

How the results depend on the processing

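No paired analysis was possible because each genotype has 1 library. Under TPM scaling the ribosomal protein median was -0.15 in PS19 against WT (3 lower by 0.5), -0.063 in PS19 Zbp1+/- against PS19 (0 higher, 8 lower) and -0.21 in PS19 Zbp1+/- against WT. Under total reads the last 2 medians were 0.032 (0 higher) and -0.20. After the GC and length correction, PS19 against WT was -0.13 (2 lower), PS19 Zbp1+/- against PS19 had 4 higher, and PS19 Zbp1+/- against WT was 0.056 (5 higher). Centring on all genes gave 4 higher in PS19 Zbp1+/- against PS19. With Rps2 and Rps3a1 included, 2 were higher in PS19 against WT and 2 in PS19 Zbp1+/- against WT. Without 17 genes whose named copies held at least 5% of family reads, 3 were lower in PS19 Zbp1+/- against PS19 and 5 in PS19 Zbp1+/- against WT. With copies summed, a setting chosen after seeing the data, 0 were higher in PS19 against WT, 1 was lower in PS19 Zbp1+/- against PS19, and 0 were higher in PS19 Zbp1+/- against WT. Single genes with a difference of at least 0.5 that then changed sign were Rps3a1 in PS19 against WT (-0.082), Rps2 in PS19 Zbp1+/- against PS19 (0.62) and against WT (0.27), and Rps10 in PS19 Zbp1+/- against WT (0.29). The cause was not tested. Among 981 values of named genes under alternatives, these 4 are the changes of sign at that size. Of any size there were 64, with 22 under TPM, 13 under total reads, 13 after the GC and length correction, 14 with copies summed and 2 after centring. Rps10 (0.56) and Rpl21 (0.30) in PS19 Zbp1+/- against PS19 and Rpl3 (-0.20) in PS19 against WT were among those with copies summed. Depth limits Rpl24, Rps10, Rpl3l, Rpl39l and Rpl36al, which had 82 reads or fewer per library.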
